A study of Drosophila melanogaster with 6 samples.

Results

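The 9 genes described here shape mitochondria in the male germ line of Drosophila melanogaster: fzo, Marf, Opa1, Drp1, Pink1, park, milt, rho-7 and nmd. They were chosen by name, from their known roles, with earlier results of these data known. Their rows were found by FlyBase symbol among the 17807 genes of the count files. All 9 were found and all 9 had enough reads to be tested. The counts came from polyadenylated RNA of whole adult testes, with 150 pairs of testes in each library. Control males carried the bamGal4 driver without a hairpin (2 libraries). Pcf11 knockdown males carried bamGal4 and the Pcf11 hairpin of VDRC stock 103710 (2 libraries, of which library 2 has the per-gene counts analysed here). Males of the cbc knockdown carried bamGal4 and the cbc hairpin of BL stock 77426 (2 libraries). Pcf11 and cbc are subunits of a cleavage factor that acts when the 3' ends of mRNAs are made, and bamGal4 drives expression as spermatogonia turn into spermatocytes. All crosses spent 3 days at 25 °C before the progeny were moved to 29 °C. The age of the flies is not in the labels.

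After meiosis, the mitochondria of a fly spermatid gather beside the nucleus and fuse into a wrapped sphere, the nebenkern, which then unrolls along the growing sperm tail. The mitofusin fzo was first described in flies from mutants in which this fusion fails, and Marf is the other mitofusin gene. Opa1 fuses inner membranes, Drp1 divides mitochondria, and Pink1 and park act together in the removal of damaged mitochondria and are needed for normal spermatids.

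The libraries held between 18954932 and 79053532 reads assigned to genes, and the cbc libraries were the shallow ones (18954932 and 20510200). Titles of the control libraries and of Pcf11 library 2 share a style that the cbc titles do not, so whatever goes with that style or with depth cannot be told apart from the cbc genotype. The cbc transcript was at 52.5 and 56.9 reads per 1000000 assigned reads (CPM) in control and at 4.04 and 3.20 CPM in cbc knockdown. Pcf11 was at 49.9 and 54.7 CPM in control and at 24.2 CPM in Pcf11 library 2. Each target was also read in the other knockdown. Pcf11 stood at 101.7 and 97.9 CPM in the cbc libraries, 1.91-fold above control, and edgeR called this rise (adjusted p = 1.11e-06). The cbc transcript stood at 63.85 CPM in Pcf11 library 2, above both controls by an amount that edgeR did not call in the main fit (adjusted p = 0.0968). Some of the alternative settings given below did call it. Germ line, spermatocyte and spermatid markers (4, 7 and 6 genes) had reads in every library. The 4 germ line markers summed to 46.8 to 51.3 CPM in control (2 of 4 lower for cbc, 4 of 4 lower for Pcf11), to 15.1 CPM in the Pcf11 library and to 29.6 to 40.9 CPM for cbc. The summed level of the 7 spermatocyte markers was 1130 to 1228 CPM in control, 2848 CPM in the Pcf11 library and 1568 to 1686 CPM with cbc knocked down (4 higher and 2 lower for cbc, 4 and 3 for Pcf11). That of the 6 spermatid markers was 7937 to 8990, 6313 and 2596 to 2786 CPM in the same order (6 lower for cbc, 1 higher and 1 lower for Pcf11). Each of the 6 spermatid markers was thus lower in both cbc libraries than in any other library. The spermatocyte markers did not move as a group: bol alone was at 807 and 696 CPM in control and 2032 CPM in the Pcf11 library, where aly, can and sa were lower than in both controls. The 5 muscle sheath markers summed to 514 to 527, 178 and 228 to 310 CPM, and the 6 cyst and hub markers to 192 to 193, 92.4 and 94.4 to 107 CPM, and 5 and 4 of them fell for cbc and 5 and 3 for Pcf11. All 4 fat body markers were higher in both knockdowns and summed to 4.69 to 5.20, 22.9 and 32.9 to 41.9 CPM, and 1 of them, Yp1, had no read in control library 2. The 4 accessory gland markers summed to 56.3 and 164 CPM in the controls, 66.2 CPM in the Pcf11 library and 206 to 243 CPM in the cbc libraries (3 of 4 higher for cbc, 0 of 4 passing for Pcf11). The part of these shifts in the results below was not tested. In whole testes, fewer cells of a stage and less RNA per cell cannot be told apart.

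All values below are CPM scaled by TMM, a method that sets libraries to a common level from most of their genes. Against control, 2 of the 9 genes rose with cbc knocked down (fzo and milt), 4 fell (Pink1, park, nmd and Opa1) and 3 did not pass the test. Of all 13960 genes tested, 74.1% passed in that comparison (36.3% higher and 37.8% lower). In the Pcf11 library 5 of the 9 rose (fzo, milt, rho-7, Drp1 and Pink1), 1 fell (Opa1) and 3 did not pass, beside 69.0% of all genes (32.6% higher and 36.4% lower). Counts of calls in either direction among the 9 were therefore close to the background. By direction, the calls leaned to higher for Pcf11 and to lower for cbc beside those shares, which was not tested. The results lie in which genes moved and how far. The median log2 fold change of the 9 was -0.18 for cbc and 0.51 for Pcf11, where all genes tested had medians of -0.02 and -0.06. The 2 comparisons share the same control libraries. With library totals in place of TMM, all log2 fold changes shifted by a median of 0.248 for cbc and -0.285 for Pcf11, and the calls over all genes split into 6374 higher and 3943 lower in place of 5074 and 5270 for cbc, and into 3280 and 6467 in place of 4555 and 5075 for Pcf11.

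**Figure D1:**
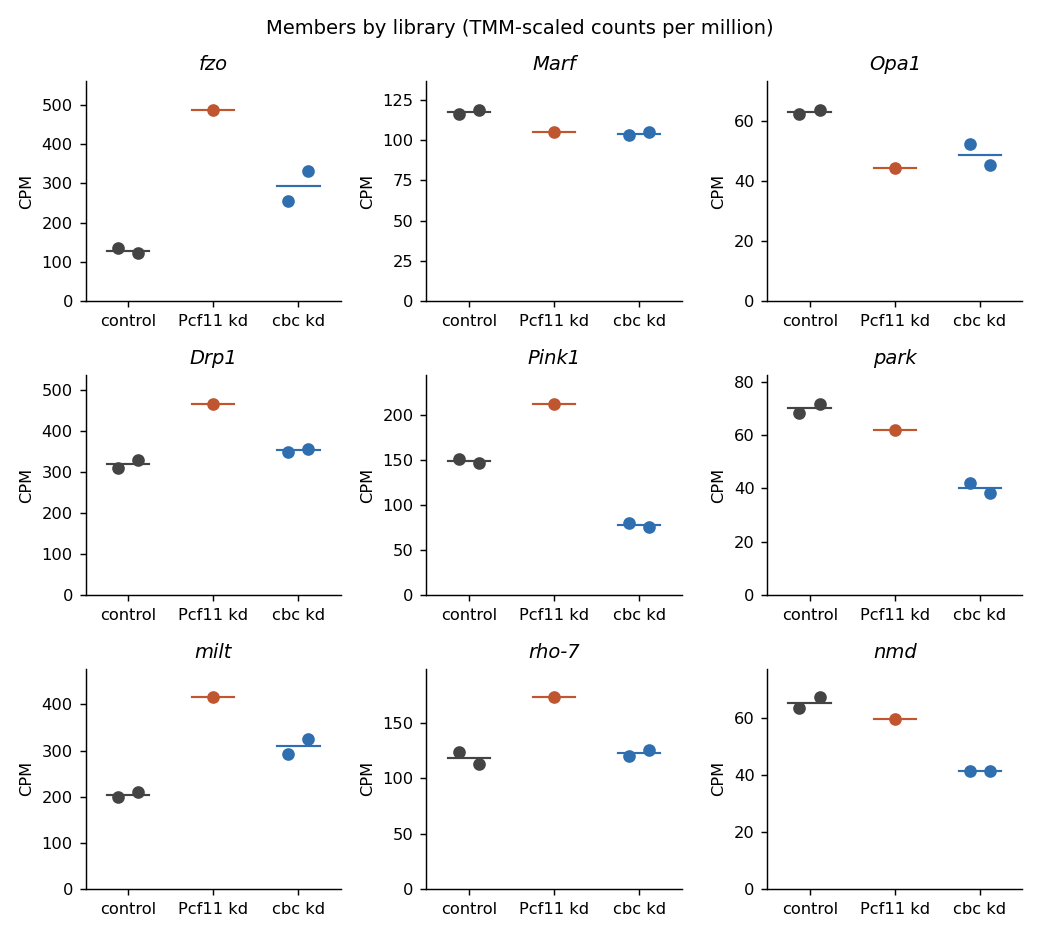
Level of each of the 9 genes in every library, in TMM-scaled CPM on axes that start at 0. Points are libraries (2 control, 1 Pcf11 knockdown, 2 cbc knockdown) and lines are group means. In all 3 knockdown libraries fzo, milt and Drp1 are higher than in both controls, and Opa1, Marf, park and nmd are lower. Some of these differences did not pass the test. The share of all genes that lie apart from the controls in this way was not counted. Of all genes, 74.1% passed the test for cbc and 69.0% for Pcf11.

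The fzo gene (FBgn0011596, 3R from 23201644 to 23204034, minus strand, BDGP6) is annotated as a single exon of 2391 bases with 1 transcript, inside an intron of cnc on the same strand. It encodes the outer membrane GTPase of nebenkern fusion. Counts by strand do not separate unspliced cnc RNA from fzo, and the part of such RNA in these counts was not tested. The fzo level was 136 and 122 CPM in the controls, 487 CPM in the Pcf11 library and 256 and 331 CPM in the cbc libraries. The groups did not overlap, and the Pcf11 library was highest. It was 2.27-fold higher with cbc knocked down (log2 fold change 1.19 ± 0.11 SE, with an edgeR adjusted p = 1.97e-06) and 3.78-fold higher in the Pcf11 library (1.92 ± 0.13, edgeR adjusted p = 2.62e-07). The Pcf11 change ranked 549 from the top among 13960 genes and the cbc change 2278. Both rises passed under each of the 12 alternative settings, with values from 0.998 to 1.43 for cbc and 1.63 to 2.06 for Pcf11.

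Marf (FBgn0029870, X from 6365949 to 6370924, plus strand), the other mitofusin gene, did not pass in either comparison. It was at 116 and 119 CPM in control, 105 CPM in the Pcf11 library and 103 and 105 CPM in the cbc libraries. Its level lay below both controls in all 3 knockdown libraries by a small margin that did not pass for cbc (log2 fold change -0.18, 95% interval -0.34 to -0.01, edgeR adjusted p = 0.0532) or Pcf11 (-0.17, 95% interval -0.37 to 0.04, adjusted p = 0.13). The cbc value passed without the filter on low counts (-0.25, adjusted p = 0.0117) and with counts taken without regard to strand (-0.26, adjusted p = 0.00777), and an lncRNA on the opposite strand covers 9.59% of its exon bases. With library totals the cbc value was 0.07 and the Pcf11 value -0.45, and the latter passed (adjusted p = 0.00127).

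Set against each other per kilobase of exon, the pair of mitofusins changed in balance. In the controls fzo was at 56.7 and 51.2 CPM per kb and Marf at 32.2 and 32.8 CPM per kb, so fzo made up 63.8% and 60.9% of their sum. With Pcf11 knocked down the fzo share was 87.6%, and with cbc knocked down it was 79.0% and 82.7%. The summed level of both genes went from 88.9 and 84.0 CPM per kb in control to 233 CPM per kb with Pcf11 and to 135 and 167 CPM per kb with cbc knocked down. A ratio within a library does not depend on the scaling between libraries. With 2 libraries against 2 no exact test of the share can pass, so it is given as a description.

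**Figure D2:**
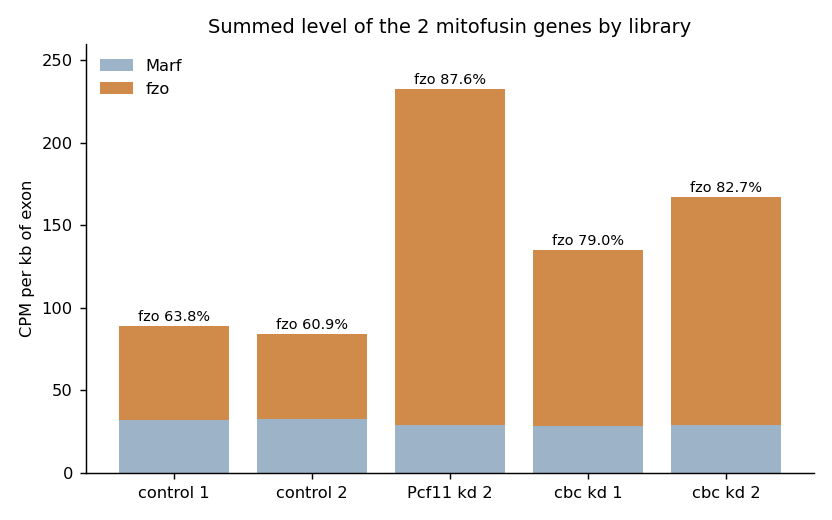
Stacked level of Marf and fzo in each of the 5 libraries, in CPM per kilobase of exon, with the fzo percentage of the sum above each bar. Marf differs little between libraries while the fzo segment is larger in the 3 knockdown libraries.

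On the inner membrane, Opa1 (FBgn0261276, 2R from 14230611 to 14235449, minus strand), the dynamin-related GTPase that fuses inner membranes, fell in both knockdowns. It was at 62.3 and 63.7 CPM in control, 44.4 CPM in the Pcf11 library and 52.2 and 45.4 CPM in the cbc libraries. The groups did not overlap. The log2 fold change was -0.37 ± 0.09 for cbc (SE, edgeR adjusted p = 0.0029) and -0.50 ± 0.11 for Pcf11 (adjusted p = 0.00149). The cbc value did not pass with library totals (-0.12, adjusted p = 0.312). The gene rho-7 (FBgn0033672, 2R from 11986513 to 11988787, minus strand) encodes an inner membrane rhomboid protease that nebenkern fusion also needs. It was at 123 and 113 CPM in control, 173 CPM in the Pcf11 library and 120 and 126 CPM in the cbc libraries. It rose in the Pcf11 library (0.55 ± 0.10, edgeR adjusted p = 0.000309), while its cbc libraries overlapped the range of the controls (0.05, 95% interval -0.12 to 0.23, adjusted p = 0.56). With library totals the cbc value was 0.30 and passed (adjusted p = 0.00429). CG34231, on the opposite strand, overlaps 56.8% of the exon bases of rho-7, and strand-specific counts were used.

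Drp1 (FBgn0026479, 2L from 2581281 to 2585430, minus strand), the dynamin-related GTPase of mitochondrial division, was the highest of the 9 in control per kilobase of exon (108 and 115.3 CPM per kb). It was at 310 and 331 CPM in control, 467 CPM in the Pcf11 library and 350 and 356 CPM in the cbc libraries. It rose in the Pcf11 library (log2 fold change 0.54 ± 0.09 SE, with an edgeR adjusted p = 0.000254). Both cbc libraries were above both controls by an amount that did not pass (0.14, 95% interval -0.03 to 0.31, adjusted p = 0.123) but that was 0.39 and passed with library totals (adjusted p = 0.000271). Per kilobase of exon, the summed mitofusins stood at 0.822 and 0.729 times the level of Drp1 in the controls, 1.43 times with Pcf11 and 1.11 and 1.35 times with cbc knocked down.

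The milt gene (FBgn0262872, 2L from 7037823 to 7056010, plus strand) encodes Milton, an adaptor between mitochondria and kinesin that also acts on the nebenkern. It followed fzo in direction with smaller changes. Its level was 200 and 209 CPM in control, 415 CPM in the Pcf11 library and 292 and 325 CPM in the cbc libraries, with no overlap between groups. It was 1.51-fold higher with cbc knocked down (log2 fold change 0.59 ± 0.08 SE, with an edgeR adjusted p = 4.46e-05) and 2.03-fold higher in the Pcf11 library (1.02 ± 0.10, adjusted p = 2.72e-06). Both passed under all 12 alternatives. The nmd gene (FBgn0005322, 2L from 10302173 to 10303947, minus strand) encodes an AAA ATPase of the outer membrane named for the lack of mitochondrial derivatives in its mutants. It was at 63.6 and 67.3 CPM in control, 59.6 CPM in the Pcf11 library and 41.6 and 41.3 CPM in the cbc libraries. It fell to 0.633 times control with cbc knocked down (-0.66 ± 0.08, edgeR adjusted p = 1.79e-05). In the Pcf11 library its change of -0.14 (95% interval -0.35 to 0.08) did not pass (adjusted p = 0.233), although it did with library totals (-0.42, adjusted p = 0.00493).

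Pink1 and park both fell with cbc knocked down. Pink1 (FBgn0029891, X from 6683798 to 6687302, plus strand) encodes the kinase that marks damaged mitochondria. It was at 152 and 147 CPM in control, 213 CPM in the Pcf11 library and 80.2 and 76.3 CPM in the cbc libraries. The Pcf11 library lay above the controls and both cbc libraries below them. Its log2 fold change was -0.93 ± 0.08 for cbc (SE, edgeR adjusted p = 6.37e-07) and 0.51 ± 0.09 for Pcf11 (adjusted p = 0.000359). The Pcf11 rise did not pass with library totals (0.23, adjusted p = 0.0627). The park gene (FBgn0041100, 3L from 21194754 to 21196853, minus strand) encodes the ubiquitin ligase Parkin, which Pink1 recruits, and an antisense RNA covers 63.8% of its exon bases. It was at 68.2 and 71.8 CPM in control, 61.9 CPM in the Pcf11 library and 42.1 and 38.4 CPM in the cbc libraries. It fell to 0.575 times control with cbc knocked down (-0.80 ± 0.09, edgeR adjusted p = 5.33e-06), and its change in the Pcf11 library was -0.18 (95% interval -0.40 to 0.05, adjusted p = 0.144). With library totals that value was -0.46 and passed (adjusted p = 0.00287). Per kilobase of exon, Pink1 stood at 1.16 and 1.07 times the level of park in the controls, 1.79 times with Pcf11 and 0.993 and 1.03 times with cbc knocked down.

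**Figure D3:**
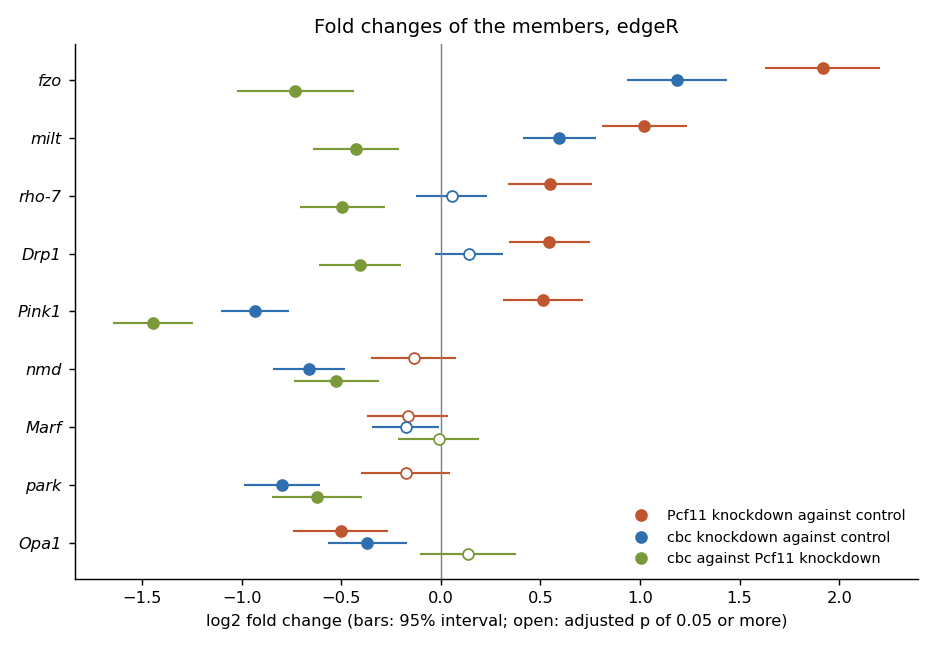
Log2 fold changes of the 9 genes in 3 comparisons with 95% intervals from the edgeR fit; open points did not pass an adjusted p of 0.05. The fzo gene is highest in both comparisons with control (1.19 and 1.92), and Pink1 lies on opposite sides of 0 (-0.93 for cbc and 0.51 for Pcf11).

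The direct comparison of the knockdowns tests whether their effects differ. In the cbc libraries 7 of the 9 genes were lower than in the Pcf11 library and 0 were higher, where 71.9% of all genes passed (42.2% higher and 29.7% lower). The median over the 9 was -0.49, against 0.27 over all genes. Pink1 differed most (log2 fold change -1.45 ± 0.09 SE, with an edgeR adjusted p = 1.3e-07), followed by fzo (-0.73 ± 0.13, adjusted p = 0.000449), park (-0.62 ± 0.10, adjusted p = 0.000205) and nmd (-0.52 ± 0.10, adjusted p = 0.000535). The differences of rho-7, milt and Drp1 lay between -0.49 and -0.40. Those of Marf (-0.01, 95% interval -0.22 to 0.19, adjusted p = 0.921) and Opa1 (0.14, 95% interval -0.11 to 0.38, adjusted p = 0.288) did not pass. This comparison rests on the scaling, and on 1 Pcf11 library. With library totals the values of the 9 genes shifted by a median of 0.532, and 1 of the 9 was lower (Pink1, -0.91) while 2 were higher (Marf and Opa1). The calls over all genes then split into 8514 higher and 2452 lower in place of 5890 and 4153.

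Levels of different genes can be set side by side per kilobase of exon. In control the order was Drp1 (112 ± 5.09 CPM per kb, SD, n = 2), rho-7 (77.2 ± 4.70), fzo (54.0 ± 3.90), Pink1 (46.1 ± 0.9997), park (41.5 ± 1.49), nmd (38.1 ± 1.51), Marf (32.5 ± 0.456), milt (26.7 ± 0.891) and Opa1 (15.9 ± 0.265). No neighbours in that order overlapped between the 2 control libraries. The milt value depends on which exons are counted as its length, and with the longest transcript in place of all exons it was 36.95 CPM per kb, above Marf. In the Pcf11 library fzo was first at 204 CPM per kb, ahead of Drp1 at 163. In the cbc libraries Drp1 (123 ± 1.52, SD, n = 2) and fzo (123 ± 22.3) overlapped, as did Pink1, nmd and park at 24.2, 24.1 and 23.9 CPM per kb.

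Splice junction reads show which parts of these genes were transcribed and spliced. They were available for Pcf11 knockdown library 1, which had 10381354 uniquely mapped junction reads, 94.0% of them on annotated introns. No control junctions were analysed here, so these values describe 1 library and make no comparison. The 8 genes with annotated introns had from 378 (nmd) to 5595 (Drp1) reads on them, and 63 of their 65 annotated introns had at least 1 read. Some of the 63 rest on very few reads, such as the intron of Marf-RB of 561 bases (1 read), that of milt-RB (1 read) and that of nmd-RB (2 reads). The 2 introns without reads both belong to Marf-RD. The fzo gene, annotated without introns, had 87 reads on 8 unannotated junctions inside it, and 4 reads joined it to positions outside.

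The milt junctions were uneven along the gene. All 6 annotated transcripts share 2 introns at the 3' end, which had 806 and 902 reads. The exon before them, of 279 bases, is joined to upstream exons by 4 annotated junctions, which together had 122 reads. With 4 unannotated junctions into the same exon the sum was 141 reads, 17.5% of those on the next intron. The other 5 annotated upstream introns had 4 to 77 reads. The first shared intron of milt had 665 more reads than the junctions that enter its exon. A different measure compares the introns common to all transcripts nearest the 5' and 3' ends. In the other genes with several such introns, the first had from 0.607 (Drp1) to 1.58 (Pink1) times the reads of the last. Within the shared part of milt it had 0.894 times. A shortfall on entry was not particular to milt. In Marf the junctions into the exon before the first shared intron had 100, 1 and 1 reads, against 254 on that intron. In Pink1 the main 2 such junctions had 326 and 120 reads, against 564.

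**Figure D4:**
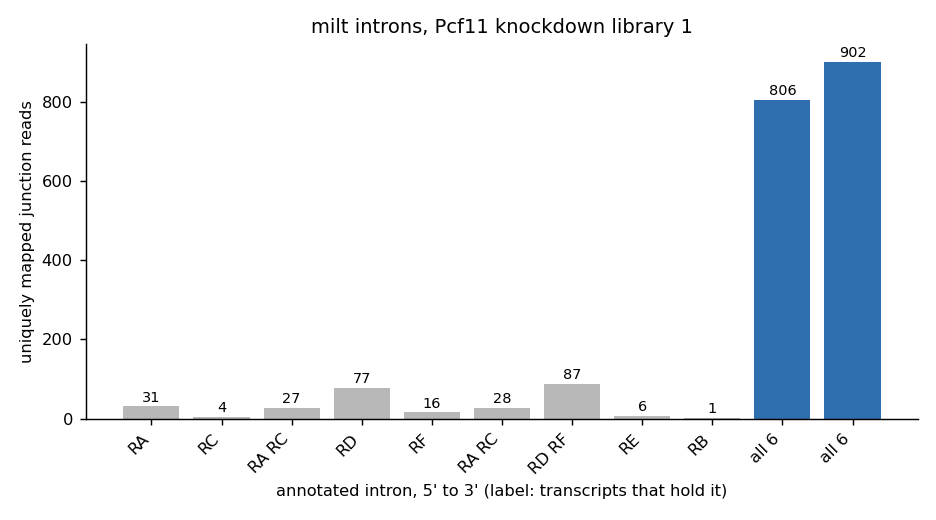
Uniquely mapped junction reads on the 11 annotated introns of milt in Pcf11 knockdown library 1, in order from the 5' end and labelled with the transcripts that hold them. The 2 introns common to all 6 transcripts (806 and 902 reads) stand above every upstream intron, of which the highest has 87.

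Other genes used alternative introns. At a shared splice site of Pink1, 326 of 447 reads (72.9%, exact 95% binomial interval 68.6% to 77.0%) used an intron of 56 bases and 120 reads an intron of 62 bases, both annotated. Opa1 skipped an alternative exon in 45 reads, while 36 and 27 reads joined that exon on its 2 sides. In Drp1, 205 of 962 reads at a shared site (21.3%, 18.8% to 24.0%) used an unannotated intron of 50 bases in place of the annotated one of 215 bases. In Marf, 27 of 129 reads (20.9%, 14.3% to 29.0%) used an unannotated intron of 58 bases. These intervals cover counting error only.

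Other genes of mitochondrial shape and quality were read from 6 lists chosen with earlier results of these data known. Each count of list members is to be read beside the shares over all genes, which were 36.3% higher and 37.8% lower for cbc (74.1% in all) and 32.6% higher and 36.4% lower for Pcf11 (69.0% in all). Of 5 genes of fission and transport, 5 fell with cbc knocked down, and 2 rose and 3 fell in the Pcf11 library (all genes, 37.8% lower for cbc). With library totals 1 fell for cbc and 0 rose for Pcf11, and without cbc library 2 there were 3 that fell for cbc. Tango11, the fly counterpart of the Drp1 receptor Mff, went from 353 ± 2.85 CPM in control to 204 ± 6.64 CPM in cbc knockdown (SD of 2 libraries; log2 fold change -0.79 ± 0.08 SE, with an edgeR adjusted p = 2.15e-06). Khc and Klc, which encode the heavy and light chains of kinesin, fell most in the Pcf11 library (-1.84 ± 0.12 and -0.76 ± 0.10). For cbc, Klc was at -0.45 ± 0.08 and did not pass with library totals (-0.20, adjusted p = 0.0689), and Khc (-0.27) did not pass with library totals (-0.03), without control library 2 (-0.22) or without cbc library 2 (-0.16). Of 8 fusion partners and genes of ubiquitin control, 3 rose and 4 fell for cbc, and 6 rose and 1 fell for Pcf11, so that 7 of 8 passed in each, beside 74.1% and 69.0% of all genes. The count that fell for cbc was 0 with library totals, 2 with the replicate number as a block or at equal depth, and 1 without cbc library 2, and the count that fell for Pcf11 was 0 with DESeq2. Miga, whose product mitoguardin promotes fusion, rose in both (0.70 ± 0.08 and 0.93 ± 0.09), as did the mitochondrial deubiquitinase gene Usp30 (0.43 ± 0.08 and 1.06 ± 0.10).

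Of 9 inner membrane genes 8 were tested, since PMI had 2 reads in the 5 libraries together. For cbc 1 rose and 4 fell, and for Pcf11 5 rose and 1 fell, so that 5 and 6 of 8 passed, beside 74.1% and 69.0% of all genes. With library totals 3 rose and 2 fell for cbc, and 2 fell for Pcf11. The prohibitin gene l(2)37Cc (-1.15 ± 0.08) and QIL1 (-0.76 ± 0.09), a subunit of the complex that forms crista junctions, changed most for cbc. In the Pcf11 library the inner membrane protease gene YME1L rose (0.92 ± 0.09) and Chchd3, of the crista junction complex, fell (-0.92 ± 0.12). Of 8 quality control genes 2 rose and 2 fell for cbc, led by the matrix protease gene ClpP, which went from 584 ± 39.1 to 190 ± 8.17 CPM (SD of 2 libraries; -1.62 ± 0.08, SE, edgeR adjusted p = 1.34e-08), and by DJ-1alpha (-1.17 ± 0.09). For Pcf11 2 rose and 1 fell, so that 4 of 8 passed for cbc and 3 of 8 for Pcf11, below the 74.1% and 69.0% of all genes, with dj-1beta at -0.86 ± 0.12 and the protease gene Lon at 0.63 ± 0.09. With library totals 5 rose for cbc, and 1 rose and 5 fell for Pcf11, and without control library 2 there was 1 that rose for Pcf11.

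Of 7 testis paralogs of mitochondrial genes, 1 rose and 5 fell for cbc, and 5 rose and 0 fell for Pcf11, beside 37.8% of all genes lower for cbc and 32.6% higher for Pcf11. With library totals 3 fell for cbc and 2 rose for Pcf11. The gene that rose in both was knon, a paralog of an ATP synthase subunit that is found in the nebenkern. Its mean level was 296 ± 10.99 CPM in control and 744 ± 23.3 CPM in cbc knockdown (SD, both groups of 2), and 1119 CPM in the Pcf11 library, with log2 fold changes of 1.33 ± 0.08 and 1.92 ± 0.09 (SE, edgeR adjusted p = 3.75e-08 and 2.72e-08), beside 1.19 and 1.92 for fzo. In the other direction tomboy20, a paralog of an import receptor, fell most for cbc (-1.80 ± 0.09). CG4701, a relative of nmd, rose in the Pcf11 library (0.92 ± 0.10). Of 6 ubiquitous counterparts, 2 rose and 1 fell for cbc and 3 rose and 2 fell for Pcf11, beside 74.1% and 69.0% of all genes that passed. With library totals 0 fell for cbc. The count that rose for cbc was 1 without control library 2 or without the filter on low counts (2 then fell), and the count that fell for Pcf11 was 1 with RLE scaling, DESeq2, the block or equal depth. The import gene ttm50 rose in both (1.14 ± 0.09 and 0.64 ± 0.11), Cyt-c-p, which encodes cytochrome c, was at -0.42 ± 0.08 for cbc, and Tom40, the import pore gene, rose for Pcf11 (0.65 ± 0.09). The Cyt-c-p value did not pass with library totals (-0.17, adjusted p = 0.124).

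**Figure D5:**
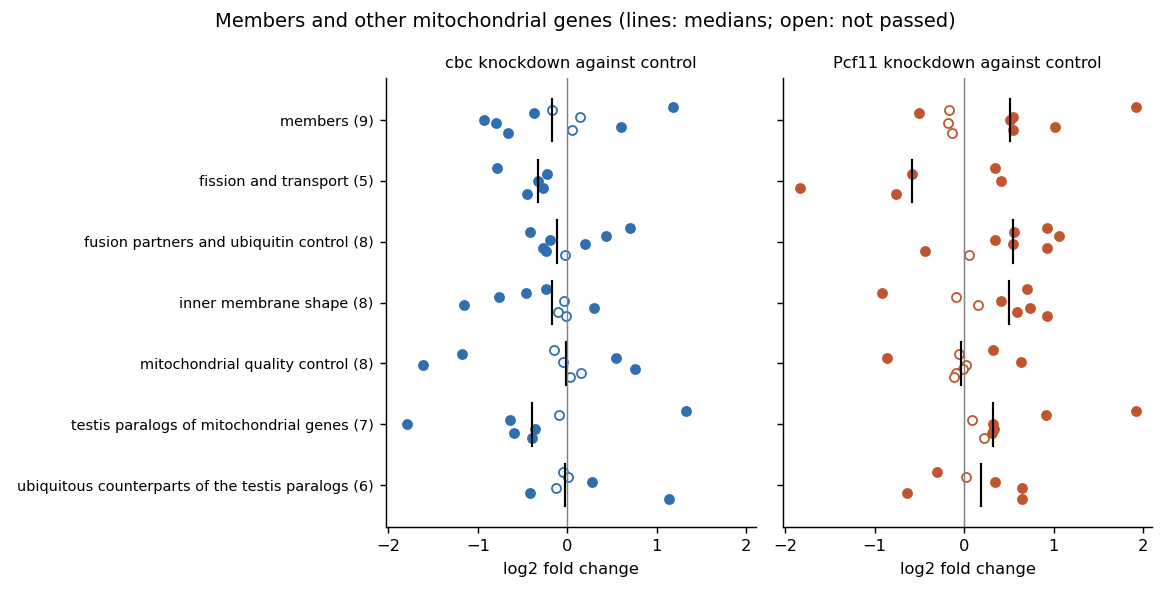
Log2 fold changes of the 9 genes and of 6 lists of other mitochondrial genes against control, with cbc knockdown on the left and Pcf11 knockdown on the right; points are genes, open where an adjusted p of 0.05 was not passed, black lines are medians, and numbers in parentheses count the genes. The list of 7 testis paralogs has a median of -0.40 for cbc and 0.32 for Pcf11.

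The genes whose pattern over the 5 libraries was most like that of fzo, by Euclidean distance between centred log2 CPM among 7891 genes with a mean of at least 10 CPM, were CG44437 (distance 0.134), CG32681 (0.146), Nna1 (0.164), CG4480 (0.166) and CG13991 (0.176). Of these, Nna1 was at 370 and 316 CPM in control, 1189 CPM in the Pcf11 library and 722 and 854 CPM in the cbc libraries. This likeness was measured over 5 libraries in 3 groups and is a description.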

How the data were processed

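The authors' deposited values used here are raw counts per gene in 5 libraries and, in Pcf11 knockdown library 1, counts per splice junction. The submitters' processing notes list dm6 and BDGP6 as builds, and STAR, Trim Galore, deepTools and SAMtools as tools. Their versions are not given in the sources used here. The sense-strand count was used, since the labels' protocols name a directional kit. The 4 lines that name no gene (unmapped, multimapped, ambiguous or outside genes), 30.3% to 37.3% of reads, were left out. Symbols, exons and introns came from a BDGP6 annotation that held 17710 of the 17807 identifiers, and 6 listed names were matched through RefSeq synonyms.

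A gene was tested where 2 or more of the 5 libraries had 10 or more counts, and genes were fitted with edgeR 4.0.16 (quasi-likelihood, TMM) in R 4.3.3, with genotype as the only term and all 3 groups together. P-values are two-sided and adjusted by Benjamini-Hochberg over 13960 genes, with a threshold of 0.05. The Pcf11 comparison rests on 1 library, assumed to vary like the others. Whether same-genotype libraries are from separate cultures is not in the labels, so p-values reflect only sample-to-sample spread, possibly technical. In simulated data for the cbc comparison (13897 genes) 92% of log2 changes of 1 were recovered, and 88% for Pcf11 (13900 genes). These simulations changed 100 genes by 1 and 100 by 2, as many up as down, and left the rest unchanged. The changed genes were drawn from those with a mean of at least 1 CPM, so recovery below that level was not tested. In the real data most genes passed, so the recovery does not test the choice of scaling. Alternatives covered scaling, filter, DESeq2 1.42.0, strand, depth, libraries and the replicate block. Named genes were all 9, the 2 most changed of each list per knockdown, and the 5 most like fzo. The genes and lists were chosen with earlier results of these data known.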

Additional observations from a re-analysis of the deposited data

How the results depend on the processing

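Of 324 values of the 9 genes under 12 alternatives, 294 kept their direction and side of the threshold, 16 of the exceptions arose with library totals, and the rest were the 2 calls of Marf given above and 12 values that turned sign without passing the test. With library totals 4 of the 9 genes were higher for cbc, 4 were lower for Pcf11, and for cbc against Pcf11 3 passed, 2 higher and 1 lower, with 2452 genes lower among all genes. Signs turned with library totals for cbc against Pcf11 in Marf (0.52), Drp1 (0.13), milt (0.11), rho-7 (0.0373) and nmd (0.0080), for cbc in Marf (0.0697), YME1L (0.23), Lon (0.19), CG4701 (0.16) and Tom40 (0.12), and for Pcf11 in ClpP (-0.26), l(2)37Cc (-0.13) and cbc (-0.0625). These turns follow from the shift that this scaling gives to all genes. RLE scaling shifted the log2 fold changes of the named genes by a median of 0.148 for Pcf11. For cbc against Pcf11 it shifted those of the 9 genes by a median of -0.145. With RLE scaling and with DESeq2 alike, nmd (-0.14 with TMM, 0.0125 here), QIL1 (-0.0878, 0.0603) and DJ-1alpha (-0.062, 0.0864) turned for Pcf11. Opa1 turned for cbc against Pcf11 (0.135 with TMM, -0.0103 and -0.0102 here). Each of these TMM values was smaller in size than the RLE shift. The cbc transcript for Pcf11 passed with RLE scaling and with DESeq2 (0.37 in each), and with only the libraries compared (0.23). It was at 0.22 without cbc library 2. Counts taken without regard to strand turned rho-7 for cbc (-0.14) and ClpP for Pcf11 (-0.0195), and rho-7 was -0.0192 for cbc without the filter on low counts. At equal depth YME1L for cbc (0.0263) and Marf for cbc against Pcf11 (0.0726) turned, and fitting only the libraries compared turned Opa1 for cbc against Pcf11 (-0.0449). The cause of the turns with strand, filter, equal depth and the libraries fitted was not tested.

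At equal depth and without single libraries no call among the 9 changed. Leaving out single libraries moved fzo between 0.998 and 1.36 for cbc and between 1.82 and 1.98 for Pcf11, and turned the sign of values near 0 that did not pass: YME1L lay between -0.0534 and 0.0114 for cbc, rho-7 lay between -0.0174 and 0.1111 for cbc, Lon lay between -0.1035 and 0.0012 for cbc, ClpP lay between -0.0635 and 0.0794 for Pcf11 and Marf lay between -0.0119 and 0.0119 for cbc against Pcf11. Pcf11 library 2 could not be left out of its own comparisons. The libraries share only a number between groups: deviations of same-numbered control and cbc libraries had a correlation of -0.03 across genes. With the replicate block, fzo was at 1.18 for cbc and 1.86 for Pcf11, Marf turned for cbc against Pcf11 (0.0034), no call among the 9 changed, and 10264, 9187 and 9651 genes passed in place of 10344, 9630 and 10043. Of 624 values of the other named genes, 589 kept their direction and call, 9 no longer passed, 9 newly passed and 17 turned.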

Other observations

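Reads on the strand opposite to Pink1, where CG44303 overlaps 10.5% of its exon bases, were at 5.90 and 6.49 CPM in control, 1.97 CPM in the Pcf11 library and 1.59 and 1.92 CPM with cbc knocked down. That is 3.74% and 4.23% of the stranded reads of the gene in control, and 0.915% to 2.45% in the knockdowns. Reads opposite to Marf were at 0.638 and 0.791 CPM in control, 0.666 CPM in the Pcf11 library and 1.04 and 2.05 CPM in the cbc libraries. These antisense values were not tested, and fzo had at most 3 such reads in any library.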
